A study of Mus musculus with 4 samples.

Results

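The 35 genes described here make up a module of nucleolar ribosome biogenesis, and all 35 listed symbols were present among the 14519 entries of the expression table. The symbols were listed by function, with earlier results of these data known, so their counts are a description and not independent support. The list holds RNA polymerase I subunits, the pre-ribosomal RNA, small nucleolar ribonucleoproteins, abundant nucleolar proteins, and assembly factors of the small and large ribosomal subunits. RNA came from the mouse colon, from 2 libraries of Reg4+ deep crypt secretory (DCS) cells, sorted on a Reg4-dsRed reporter, and 2 libraries of Lgr5+ cells, sorted on an Lgr5-GFP reporter. DCS cells are mucus-producing cells at the crypt base, where they lie between Lgr5+ stem cells. Libraries were made by CEL-seq, which tags the 3′ ends of linearly amplified RNA, and values are RPM, which are read numbers scaled to the same total in each library. Cells were sorted and libraries prepared on 2 occasions, given as biological replicates, and the design text does not say whether libraries with the same number share one. No treatment is named for either population, and the animals' strain, sex, age and number, and the sort gates, were not given in the sources used here.

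Ribosomes are built mainly in the nucleolus. RNA polymerase I transcribes a long precursor there, small nucleolar ribonucleoproteins guide its chemical modification and cleavage, and assembly factors fold and trim it as ribosomal proteins join, until the small (40S) and large (60S) subunits are exported. The process takes a large share of the energy of growing cells, and in the intestinal crypt it is known as a feature of stem and dividing progenitor cells, with Myc as a well-studied activator.

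The nucleolar ribosome biogenesis genes were lower in Reg4+ DCS cells than in Lgr5+ cells as a group. All 35 reached 5 RPM in at least 2 libraries and were tested, and 31 were lower in Reg4+ DCS cells at a Benjamini-Hochberg adjusted p under 0.05 (limma), against 26.9% of the 10183 genes tested. None was higher, against 7.18% of all genes tested. The 4 that did not pass were Gar1, Nop10, Ddx21 and Wdr74. The members' median log2 fold change (Reg4+ DCS less Lgr5+, taken on log2(RPM + 1) values) was −1.24, and the median of all genes tested was −0.47. Of the 35, 34 had a log2 fold change below that all-gene median, though Gar1 and Wdr74 (both −0.47) were almost at it. Both Lgr5+ libraries lay above both Reg4+ DCS libraries for 34 members, as they did for 56.2% of all genes tested. In Nop10 the nearest values of the populations were almost equal. Mean RPM was at least 2-fold higher in Lgr5+ cells for 24 members and at least 3-fold higher for 8. For 17 members even the lower Lgr5+ library was at least 2-fold above the higher Reg4+ DCS library. Shares of all genes tested were not counted for these fold limits, so the counts describe the members alone. Of all genes tested, 15.6% had a log2 fold change below the members' median. Without the pre-ribosomal RNA, the members' RPM summed to 1366 and 1780 per Reg4+ DCS library but to 3437 and 3844 per Lgr5+ library, a ratio of 2.31.

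**Figure D1:**
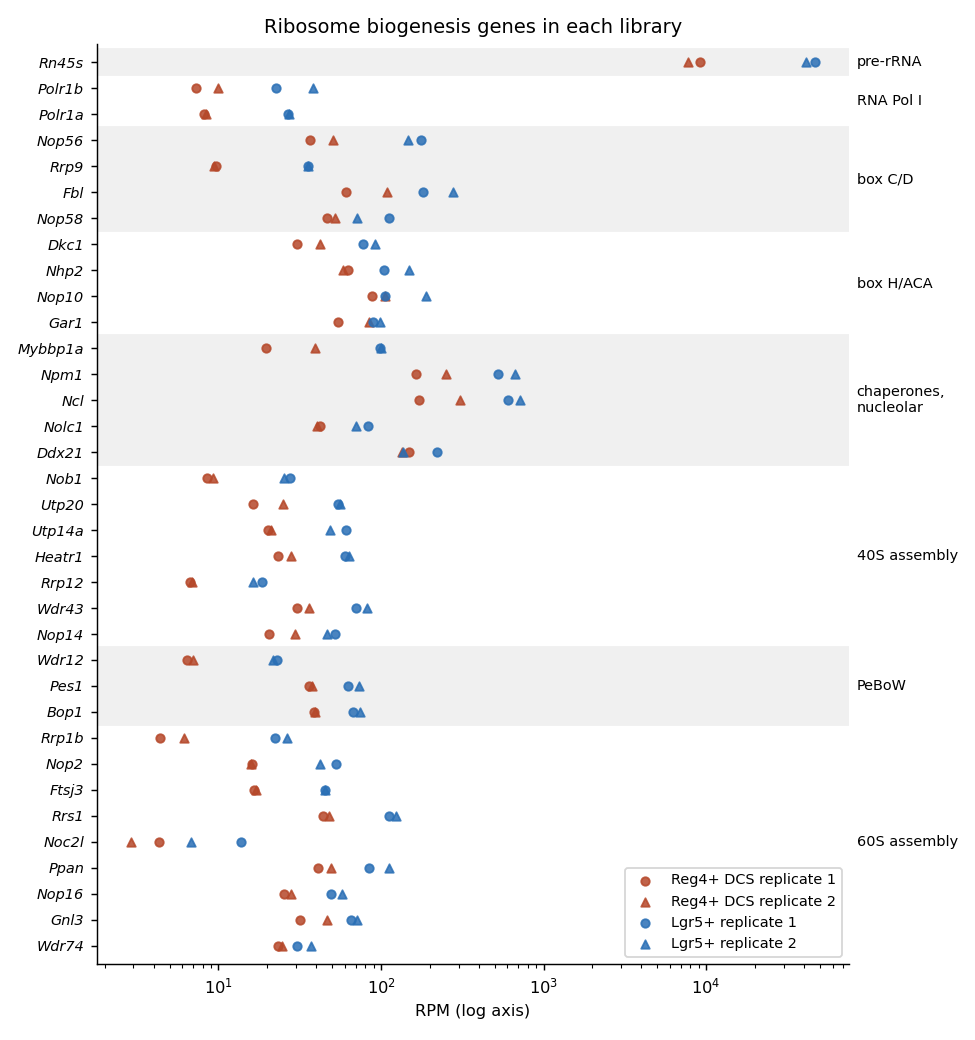
RPM of each of the 35 nucleolar ribosome biogenesis genes in each library on a log axis, with 1 point per library and colour marking the population. Both Lgr5+ points lie to the right of both Reg4+ DCS points for 34 of the 35 genes, and Ddx21 is the gene whose groups overlap. In Nop10 the nearest points of the populations almost coincide.

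The libraries differed in more than these genes. The sort markers followed the labels, with Reg4 at 6043 ± 204 RPM (SD, n = 2) in its own sort and 579.8 ± 306 RPM in the Lgr5+ sort, and Lgr5 at 2.06 ± 1.52 and 47.6 ± 1.62 RPM in the same order. All 10 markers of goblet and DCS cells rose in Reg4+ DCS cells, and Lgr5+ stem cell markers were lower for 5 of 6, of which 3 passed the filter on low values through the Lgr5+ libraries alone. Of 8 cell cycle genes, 6 were lower in Reg4+ DCS cells, and the 8 summed to 463 and 479 RPM, against 1679 and 1691 RPM in Lgr5+ cells. All 5 tuft cell markers tested passed the filter on low values through the Lgr5+ libraries alone, so that their lower calls are built in, with sums over the list of 2.30 and 1.98 RPM against 790.1 and 234.6 RPM, and with Pou2f3, Rgs13 and Il25 at 0 in both Reg4+ DCS libraries. Leukocyte markers, with 6 of 10 in the table, summed to 0.536 and 0.537 RPM against 46.5 and 13.2, and Ptprc, Cd3e, Cd79a and Coro1a were at 0 in both Reg4+ DCS libraries. Sums of absorptive markers were 69.2 and 27.7 RPM against 406 and 81.2, those of enteroendocrine markers were 18.1 and 26.4 against 73.2 and 35.3, and those of the 4 stromal markers in the table were 0.264 and 0.614 against 5.57 and 5.15. The part of dividing cells or of these other cell types in the members' difference was not tested. In bulk samples, fewer cells of a type and less RNA per cell cannot be told apart.

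RPM is relative to the whole library, and abundant mucus genes fill part of the Reg4+ DCS libraries: Clca3 alone, a gene of goblet cell mucus, took 11.8% and 5.51% of their RPM. Under median-of-ratios scaling, which puts the all-gene median log2 fold change at 0.017, 19 of the 35 members were lower in Reg4+ DCS cells, against 12.7% of all genes tested, and the members' median was −0.81. The edgeR quasi-likelihood test on reads recovered from the RPM steps also gave 19, against 13.4% of all genes, and 18 members were called under both. With Reg4+ DCS replicate 1 left out, 12 members passed, against 10.6% of 9999 genes tested; a single library then stood for the population and was assumed to vary like those of the other. The same 12 genes passed in every setting run: Polr1a, Nop56, Rrp9, Mybbp1a, Utp14a, Heatr1, Nob1, Wdr12, Nop2, Ftsj3, Rrs1 and Rrp1b. They include an RNA polymerase I subunit, box C/D proteins and factors of both subunits. No member was called higher in Reg4+ DCS cells in any setting run, though Ddx21, Gar1 and Wdr74 had positive log2 fold changes under median-of-ratios scaling.

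**Figure D2:**
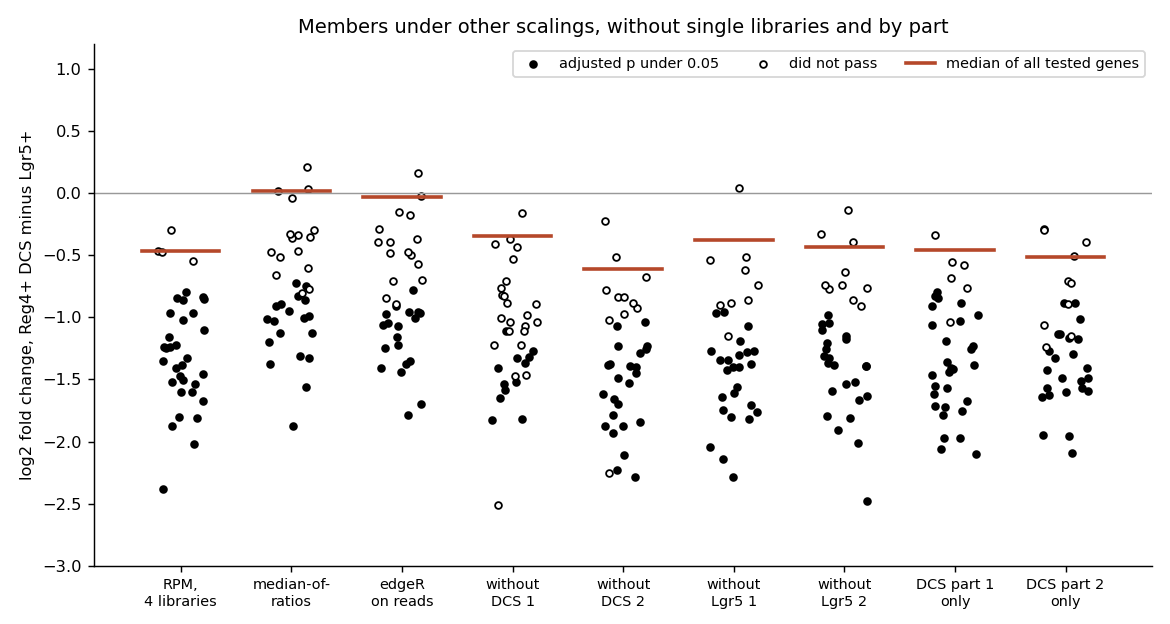
Log2 fold change (Reg4+ DCS minus Lgr5+) of each member under 9 of the settings, 1 point per gene, filled where the adjusted p was under 0.05 and open where it was not, with a bar at the median of all genes tested. The points lie mostly below the bar in every setting shown, and there are 31 filled points with all 4 libraries, 19 under median-of-ratios scaling, 19 in edgeR and 12 without Reg4+ DCS replicate 1.

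Promoter sequence was compared as a feature that the choice of genes did not use. RefSeq promoter windows on GRCm38.p6 matched 29 of the 35 members, with 33 windows since some genes have several start sites. The E-box CACGTG, a palindrome that Myc and its partner Max are known to bind, was in 5 of the 33 windows (15.2%), against 7.15% of all 32851 windows and 10.4% of the 9803 windows of tested genes. These 5 are shown because Myc is the best-known regulator of the pathway. Each is written 5′ to 3′ on the gene's strand with the motif in capitals.

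Nop2, chr6:125131813-125131838, plus strand: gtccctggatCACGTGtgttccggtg
Mybbp1a, chr11:72441357-72441376, plus strand: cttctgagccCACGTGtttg
Utp20, chr10:88826765-88826787, minus strand: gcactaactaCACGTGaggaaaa
Wdr43, chr17:71616222-71616247, plus strand: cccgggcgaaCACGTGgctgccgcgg
Pes1, chr11:3963967-3963992, plus strand: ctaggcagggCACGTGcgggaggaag

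The ETS-type motif CCGGAAG, searched on both strands (CTTCCGG is its reverse complement) and unable by its letters to overlap the E-box, was in 9 windows (27.3%) of 8 genes, against 8.86% of all windows and 18.6% of those of tested genes. Of these, 4 are shown, from called genes of the H/ACA, small subunit and large subunit roles, again with the motif in capitals. They include Nop2, the 1 gene with both motifs.

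Nop2, chr6:125131835-125131861, plus strand: ggtgccgcggCCGGAAGaggcggggcg
Heatr1, chr13:12395349-12395375, plus strand: tagtgagaagCCGGAAGttcctatgag
Ppan, chr9:20888183-20888209, plus strand: ccgcgtggcaCCGGAAGttggccacgt
Nhp2, chr11:51619740-51619766, plus strand: acttgaaaacCCGGAAGtgatgtcgga

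Counting from the start site, the E-box began upstream at base −60 in Nop2 and downstream in the other 4, at base 3 in Pes1, 18 in Wdr43, 38 in Utp20 and 41 in Mybbp1a. The ETS-type motifs shown began at base −38 in Nop2, −23 in Nhp2, −16 in Heatr1 and 19 in Ppan. A match is a description of letters in a window and not a bound site. The log2 fold changes of the 5 E-box genes ran from −1.81 (Mybbp1a) to −0.85 (Pes1), and since 31 of all 35 members were called, their calls say nothing particular to the motif. The 8 genes with the ETS-type motif included Gar1 and Wdr74, which were not called.

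The entry Rn45s, the 45S pre-ribosomal RNA that is the product of RNA polymerase I, had the largest fold change of the 35. Its Reg4+ DCS values were 9184 and 7684 RPM, and its Lgr5+ values were 46715 and 41028 RPM. The groups lay far apart, and the entry took 0.918% and 0.768% of all RPM in Reg4+ DCS cells but 4.67% and 4.10% in Lgr5+ cells. The means were 8434 ± 1060 and 43871 ± 4021 RPM (SD, n = 2 each), 5.20-fold higher in Lgr5+ cells, with a log2 fold change of −2.38 ± 0.36 (SE) and an adjusted p of 0.00241 (limma, Benjamini-Hochberg). Leaving out either Reg4+ DCS library ended the call, with adjusted p of 0.0900 without replicate 1 and 0.0953 without replicate 2, while the fold stayed between 4.78 and 5.71 over all 4 omissions. With no filter on low values the adjusted p was 0.0519. Each Reg4+ DCS column is the mean of 2 separately scaled parts. In replicate 1 the parts held 14501 and 3866 RPM, and in replicate 2 the column allowed 2 solutions, 9476 and 5892 RPM or 8785 and 6583 RPM. Every one of these values was below both Lgr5+ libraries, although the parts of replicate 1 differed from each other more than the replicates did. Ribosomal RNA genes are repeated in near-identical copies and CEL-seq primes on poly(A) tails, so the value is uncertain as a measure of pre-ribosomal RNA. With Rn45s left out of the RPM totals, 31 members were still called lower.

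**Figure D3:**
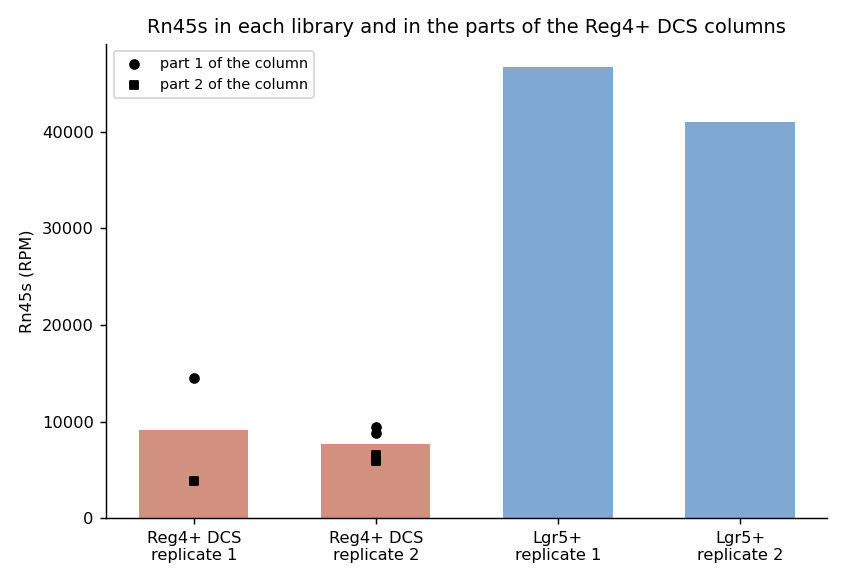
RPM of Rn45s in each library on an axis that starts at 0, with 1 bar per library and with the decoded parts of the Reg4+ DCS columns as points over the bars (both solutions for replicate 2). The Lgr5+ libraries stand at 46715 and 41028 RPM, and the highest part of a Reg4+ DCS column is at 14501 RPM.

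Both RNA polymerase I subunits on the list were lower in Reg4+ DCS cells. Polr1a, which encodes the largest subunit, was at 8.14 and 8.34 RPM in Reg4+ DCS cells and 26.9 and 27.3 RPM in Lgr5+ cells. The replicates of each population almost coincided, and the gene was 3.29-fold higher in Lgr5+ cells (log2 fold change −1.60 ± 0.28 SE, adjusted p = 0.00439, limma). Polr1b, the other large subunit that shapes the catalytic centre, was at 7.32 and 9.98 RPM against 22.7 and 38.3 RPM. The Lgr5+ libraries differed more from each other here, and the fold of 3.53 became 2.62 without Lgr5+ replicate 2 and 4.43 without Lgr5+ replicate 1; the adjusted p was 0.00873 with all libraries and 0.0639 when Reg4+ DCS replicate 1 was left out.

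The 4 listed members of the box C/D ribonucleoproteins, which guide methylation of ribosomal RNA and early cleavage, were lower in Reg4+ DCS cells, with a median log2 fold change of −1.63. A further core protein that is not on the list, Nhp2l1, was at 52.3 and 61.97 RPM in Reg4+ DCS cells against 82.2 and 119 RPM and did not pass (log2 fold change −0.79 ± 0.26 SE, adjusted p = 0.0501, limma); it is named because it completes the complex. Nop56, a core scaffold protein, was at 36.5 and 50.6 RPM in Reg4+ DCS cells and 176 and 146 RPM in Lgr5+ cells. Its groups were wide apart, with a 3.71-fold higher mean in Lgr5+ cells (log2 fold change −1.88 ± 0.26 SE, adjusted p = 0.00152, limma). Rrp9, which binds the U3 small nucleolar RNA, was at 9.60 and 9.35 RPM against 35.7 and 35.6 RPM. This 3.76-fold difference far exceeded the spread in either population (adjusted p = 0.00230). Fbl, the methyltransferase fibrillarin, was at 60.5 and 109 RPM against 181 and 277 RPM. The higher Reg4+ DCS library was below the lower Lgr5+ library, but the replicates differed within both populations, and the call (adjusted p = 0.0131) was lost when Reg4+ DCS replicate 1 was left out (0.0959). Nop58, the partner of Nop56, was at 46.7 and 52.1 RPM against 112 and 70.9 RPM. Its 1.86-fold difference was the least certain of the 4: the adjusted p of 0.0484 became 0.345 under median-of-ratios scaling, 0.464 in edgeR, 0.189 and 0.102 without Reg4+ DCS replicate 1 or 2, and 0.301 without Lgr5+ replicate 1.

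Of the 4 proteins of the box H/ACA ribonucleoproteins, which convert uridine to pseudouridine, 2 were lower in Reg4+ DCS cells, with a median log2 fold change of −0.78. Dkc1, the pseudouridine synthase dyskerin, was at 30.4 and 41.9 RPM in Reg4+ DCS cells and 78.0 and 92.4 RPM in Lgr5+ cells, 2.36-fold higher in Lgr5+ cells (adjusted p = 0.00981, limma). Its call was lost in edgeR (0.0519) and with Reg4+ DCS replicate 1 left out (0.0653). Nhp2 was at 63.1 and 58.8 RPM against 105 and 148 RPM, a 2.08-fold difference with an adjusted p of 0.0173 that did not pass under median-of-ratios scaling (0.180), in edgeR (0.162) or with any 1 library but Lgr5+ replicate 1 left out (0.0695 to 0.0977). Nop10, the smallest core protein, was at 88.0 and 106 RPM against 106 and 189 RPM. The upper Reg4+ DCS value and the lower Lgr5+ value were almost equal, and the gene passed in a single setting, without Lgr5+ replicate 1 (adjusted p = 0.0335, against 0.190 with all 4 libraries). Gar1 was at 54.3 and 84.3 RPM against 89.3 and 99.1 RPM, with a log2 fold change of −0.47 ± 0.27 SE and an adjusted p of 0.206; under median-of-ratios scaling the log2 value was 0.035. Gar1 and Nop10 thus had log2 fold changes close to that of all genes, and these 2 proteins belong to the same complex as dyskerin. Whether they differ from Dkc1 in their fold change was not tested.

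Of the 5 abundant nucleolar proteins and chaperones, 4 were lower in Reg4+ DCS cells. Ncl, nucleolin, which binds pre-ribosomal RNA and ribosomal chromatin, was at 172 and 306 RPM in Reg4+ DCS cells and 604 and 719.6 RPM in Lgr5+ cells. Npm1, nucleophosmin, a histone and ribosome chaperone, was at 164 and 253 RPM against 527 and 667 RPM. In both genes Reg4+ DCS replicate 2 was the higher of its pair and still well below both Lgr5+ libraries. Nucleolin was 2.77-fold higher in Lgr5+ cells (adjusted p = 0.00754, limma) and nucleophosmin 2.86-fold (adjusted p = 0.00483); without Reg4+ DCS replicate 1 these p became 0.0649 and 0.0532. Mybbp1a, a nucleolar protein that binds the Myb oncoprotein, was at 19.6 and 39.0 RPM against 98.5 and 100.4 RPM. Its Lgr5+ libraries almost coincided, and the fold of 3.39 became 5.07 without Reg4+ DCS replicate 2 (adjusted p = 0.00527 with all libraries). Nolc1, a chaperone of small nucleolar ribonucleoproteins, was at 42.2 and 40.7 RPM against 82.8 and 69.8 RPM, 1.84-fold higher in Lgr5+ cells, with an adjusted p of 0.0258 that was 0.269 under median-of-ratios scaling, 0.244 in edgeR and 0.0751 to 0.131 with any 1 library but Lgr5+ replicate 2 left out. Ddx21, a helicase of both RNA polymerase I and II transcription, had the smallest log2 fold change in size among the members. It was at 149 and 135 RPM in Reg4+ DCS cells and 221 and 138 RPM in Lgr5+ cells, so the groups overlapped. Its log2 fold change of −0.30 ± 0.27 SE (adjusted p = 0.413) had the opposite sign under median-of-ratios scaling (0.21), in edgeR (0.16) and without Lgr5+ replicate 1 (0.043).

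All 7 assembly factors of the small subunit were lower in Reg4+ DCS cells, with log2 fold changes from −1.47 to −0.97. Nob1, the nuclease that makes the final cut of the small subunit RNA, was at 8.48 and 9.31 RPM in Reg4+ DCS cells and 27.7 and 25.1 RPM in Lgr5+ cells, 2.97-fold higher in Lgr5+ cells (adjusted p = 0.00662, limma). Utp20, a large scaffold of the early processome, was at 16.4 and 25.0 RPM against 54.6 and 55.9 RPM, a fold of 2.67 (adjusted p = 0.00808). Utp14a, which activates the helicase that releases U3, was at 20.2 and 21.1 RPM against 60.9 and 48.3 RPM, a fold of 2.65 (adjusted p = 0.00646). These factors act at the start, the middle and the end of small subunit maturation, and none had overlapping groups. Heatr1, an RNA polymerase I and processome factor, was at 23.2 and 28.1 RPM against 60.3 and 63.4 RPM (adjusted p = 0.00767). Wdr43, another processome protein, was at 30.3 and 36.3 RPM against 69.7 and 81.5 RPM (adjusted p = 0.00954). Rrp12, an export factor, was at 6.72 and 6.92 RPM against 18.6 and 16.3 RPM (adjusted p = 0.0156). The spread within a population was small in each of them next to the difference. Nop14, which joins the processome early, was at 20.3 and 29.6 RPM against 51.9 and 46.3 RPM, a fold of 1.97 (adjusted p = 0.0302). Wdr43, Rrp12 and Nop14 lost their calls when scaled by median of ratios (adjusted p = 0.0578, 0.0664 and 0.159), in edgeR (0.0525, 0.0780 and 0.138) and with Reg4+ DCS replicate 1 left out (0.0613, 0.0673 and 0.145). The calls of Rrp12 and Nop14 were also lost with Lgr5+ replicate 1 left out (0.0813 and 0.0886), and that of Utp20 with Reg4+ DCS replicate 1 left out (0.0504).

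The PeBoW complex, needed to process the precursor of the large subunit RNAs, has 3 proteins, and all 3 genes were lower in Reg4+ DCS cells. Wdr12 was at 6.36 and 6.997 RPM in Reg4+ DCS cells and 22.9 and 21.6 RPM in Lgr5+ cells, 3.33-fold higher in Lgr5+ cells (log2 fold change −1.60 ± 0.29 SE, adjusted p = 0.00517, limma). Pes1 was at 36.2 and 37.9 RPM against 62.4 and 73.4 RPM, a fold of 1.83 (log2 fold change −0.85 ± 0.24 SE, adjusted p = 0.0274). Bop1 was at 38.9 and 39.0 RPM against 66.8 and 73.8 RPM, a fold of 1.80 (log2 fold change −0.83 ± 0.23 SE, adjusted p = 0.0272). The 3 partners thus had log2 fold changes of unequal size, though the difference between them was not tested. Wdr12 passed in every setting run, while Pes1 and Bop1 had adjusted p of 0.285 and 0.304 under median-of-ratios scaling, 0.243 and 0.137 in edgeR, and lost their calls with Reg4+ DCS replicate 1 (0.104 and 0.0945), Reg4+ DCS replicate 2 (0.0660 and 0.0697) or Lgr5+ replicate 2 (0.136 and 0.120) left out. Bop1 also lost its call with Lgr5+ replicate 1 left out (0.0613).

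Of the 9 other factors of large subunit assembly, 8 were lower in Reg4+ DCS cells, with a median log2 fold change of −1.24. Rrp1b, which also binds chromatin and splicing factors, had the largest log2 fold change among the protein-coding members. It was at 4.38 and 6.14 RPM in Reg4+ DCS cells and 22.3 and 26.3 RPM in Lgr5+ cells, 4.62-fold higher in Lgr5+ cells (log2 fold change −2.02 ± 0.31 SE, adjusted p = 0.00264, limma). Nop2, a methyltransferase of the large subunit RNA and an old marker of proliferation, was at 16.1 and 15.8 RPM against 52.6 and 42.1 RPM, a fold of 2.97 (adjusted p = 0.00454). Ftsj3, another RNA methyltransferase, was at 16.4 and 16.9 RPM against 45.3 and 45.0 RPM, a fold of 2.71 (adjusted p = 0.00531). Rrs1, which brings the 5S particle to the precursor, was at 44.1 and 47.8 RPM against 111 and 123 RPM, a fold of 2.55 (adjusted p = 0.00385). In these 4 genes the replicates lay close together and the populations far apart. Ppan was at 40.9 and 49.0 RPM against 84.7 and 112 RPM (adjusted p = 0.0130), and Nop16 at 25.4 and 28.1 RPM against 49.2 and 57.2 RPM (adjusted p = 0.0208). Under median-of-ratios scaling these calls were lost (0.0937 and 0.166), as they were with Reg4+ DCS replicate 1 (0.0810 and 0.0906) or Lgr5+ replicate 2 (0.0594 and 0.0936) left out, and Nop16 did not pass in edgeR (0.171). Gnl3, nucleostemin, a GTPase named for its expression in stem cells, was at 31.9 and 46.7 RPM against 65.3 and 70.8 RPM. Its fold was 1.73, with an adjusted p of 0.0497 just inside the threshold and 0.355 under median-of-ratios scaling, 0.264 in edgeR and 0.0843 to 0.224 with any 1 library but Reg4+ DCS replicate 2 left out. Noc2l was the 1 member that passed the filter on low values through the Lgr5+ libraries alone, so its difference is partly built in: it was at 4.30 and 2.89 RPM against 13.8 and 6.79 RPM, a fold of 2.87 that was 1.89 without Lgr5+ replicate 1 (adjusted p = 0.0465 with all libraries). The call was lost in edgeR (0.210), under median-of-ratios scaling (0.170) and with either Reg4+ DCS library left out (0.107 and 0.163). Wdr74 was at 23.2 and 24.7 RPM against 30.4 and 37.3 RPM and did not pass (log2 fold change −0.47 ± 0.26 SE, adjusted p = 0.188); its log2 value was 0.018 under median-of-ratios scaling.

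**Figure D4:**
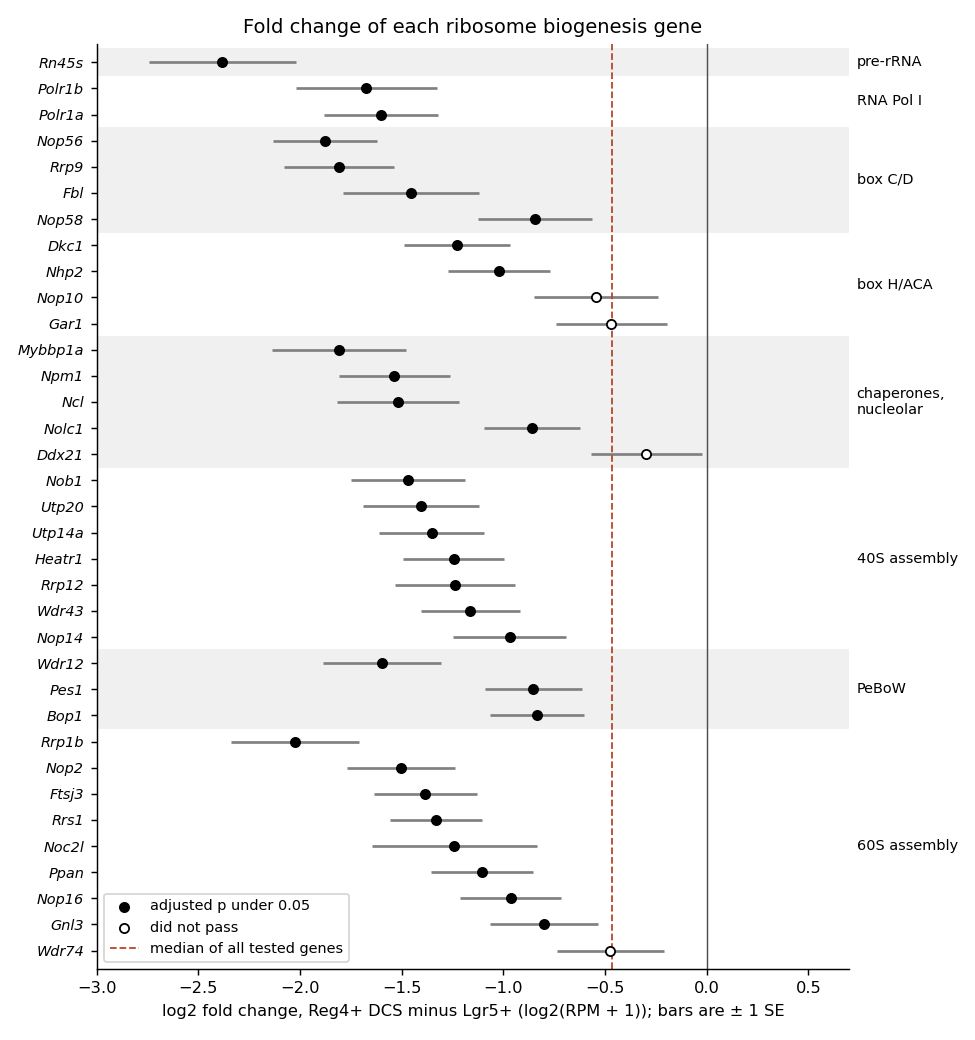
Log2 fold change (Reg4+ DCS minus Lgr5+) of each member with its standard error from limma, grouped by role, with called genes and uncalled genes marked and a line at the median of all tested genes, −0.47. Rn45s (−2.38) and Rrp1b (−2.02) lie farthest from 0, and Ddx21 (−0.30) is the 1 member on the other side of the line. Gar1 and Wdr74 lie almost on the line.

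The members' values also varied within a population. In Reg4+ DCS cells 28 of 35 were higher in replicate 2 than in replicate 1, as were 73.6% of all genes tested. In Lgr5+ cells 21 of 35 were higher in replicate 2, against 47.0% of all genes tested. In 32 members all 4 parts of the Reg4+ DCS columns were below both Lgr5+ libraries, and Gar1, Nop10 and Ddx21 were the exceptions. The share of all genes tested that meet this rule was not counted. For whole columns, both Lgr5+ libraries lay above both Reg4+ DCS libraries in 56.2% of all genes tested.

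In the genome the 34 protein-coding members matched GENCODE M21 on GRCm38, and the list with Rn45s spanned 17 chromosomes. Ncl lies at chr1:86344719-86359400, Npm1 at chr11:33152287-33163206, Fbl at chr7:28169710-28179269, Nop56 at chr2:130274430-130279313, Dkc1 at chrX:75095854-75109777 and Rrp1b at chr17:32036100-32062865. A feature the list was not chosen on is that 7 of the 34 (20.6%) hold small nucleolar RNA genes within their bounds on the same strand, against 199 of 9640 matched tested genes (2.06%). These are Nop56 (with Snord110 and Snord57 among others), Nop58 (Snord11 and Snord70), Dkc1, Ncl (Snora75 and Snord82), Wdr43 (Snord53 and Snord92), Ppan and Gnl3 (Snord19 and Snord69). Such guide RNAs are commonly released from introns of their host, so host genes of this kind carry both a protein for ribosome assembly and guide RNAs. All 7 hosts were lower in Reg4+ DCS cells, as were 31 of all 35 members, from −1.88 in Nop56 to −0.80 in Gnl3 on the log2 scale. Exons of 16 members overlap another gene on the opposite strand, for example Nop56 with Idh3b, Rrp9 with Parp3, Mybbp1a with Spns2 and Rrp1b with Hsf2bp, and since use of strand in the counting is not given, reads of such pairs may not be told apart.

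The rest of the pathway was described with 153 other ribosome biogenesis genes, of which 150 were tested. Of these, 65 were lower in Reg4+ DCS cells and 0 higher, beside 26.9% and 7.18% of all genes tested. Of the 150, 8 passed the filter on low values through the Lgr5+ libraries alone, and without them 59 of 142 were lower. A single gene of the 150 had an unadjusted p under 0.05 in the higher direction, and edgeR called 2 higher and median-of-ratios scaling 4. Their median log2 fold change was −0.83, between that of the members and that of all genes. The lower calls fell to 16 of the 150 under median-of-ratios scaling, against 12.7% of all genes tested. In edgeR they fell to 22 of the 150, against 13.4%. Both counts are near the share of all genes, so the lower calls of this list stand out on RPM only. By role, 6 of 18 RNA polymerase I subunits and factors, 18 of 45 small subunit factors, 5 of 11 snoRNP assembly factors, 22 of 52 large subunit factors and 14 of 24 nucleases and exosome genes were lower. The RNA polymerase I count is near the 26.9% of all genes tested. The median log2 fold change of that list was −0.53, against −0.47 for all genes tested.

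Single genes of each role had large differences. Cd3eap, a subunit of RNA polymerase I, was at 21.3 and 27.4 RPM in Reg4+ DCS cells and 80.1 and 88.0 RPM in Lgr5+ cells, 3.45-fold higher in Lgr5+ cells (adjusted p = 0.00189, limma). Polr2h, a subunit shared by the nuclear polymerases, was at 11.1 and 23.7 RPM against 42.5 and 47.5 RPM, and its fold of 2.59 became 4.05 without Reg4+ DCS replicate 2 (adjusted p = 0.0205, 0.0557 under median-of-ratios scaling). Wdr46, a processome protein, was at 10.4 and 12.7 RPM against 37.8 and 43.2 RPM, a fold of 3.51 (adjusted p = 0.00303). In all 3 the populations were apart by more than their replicates. Rcl1, a processome protein related to RNA cyclases, was at 15.6 and 20.4 RPM against 42.8 and 46.9 RPM, a fold of 2.49 (adjusted p = 0.00941, 0.0574 without Reg4+ DCS replicate 1). Naf1, which assembles H/ACA particles, was at 9.32 and 29.0 RPM against 81.6 and 136 RPM. Its fold of 5.66 depended on the library, with 3.74 without Reg4+ DCS replicate 1 and 11.6 without Reg4+ DCS replicate 2 (adjusted p = 0.00581). Ruvbl1, an ATPase of box C/D assembly, was at 10.3 and 16.8 RPM against 36.7 and 36.1 RPM, a fold of 2.68 (adjusted p = 0.0116, 0.0639 without Reg4+ DCS replicate 1).

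Among large subunit factors, Mdn1, a giant ATPase that remodels the precursor, was at 4.59 and 5.91 RPM in Reg4+ DCS cells and 26.3 and 22.4 RPM in Lgr5+ cells, 4.64-fold higher in Lgr5+ cells (adjusted p = 0.00238, limma). Rrp15 was at 5.83 and 6.46 RPM against 26.7 and 24.9 RPM, a fold of 4.20 (adjusted p = 0.00241). Exosc8, a subunit of the RNA exosome that trims ribosomal RNA ends, was at 5.63 and 5.88 RPM against 24.6 and 29.3 RPM, a fold of 4.68 (adjusted p = 0.00192). The folds of Mdn1 and Exosc8 are close to the 4.62 of Rrp1b, the highest among the protein-coding members. Pop1, a protein of RNase P and RNase MRP, was at 3.65 and 2.93 RPM against 11.5 and 12.6 RPM (adjusted p = 0.00756) and passed the filter through the Lgr5+ libraries.

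**Figure D5:**
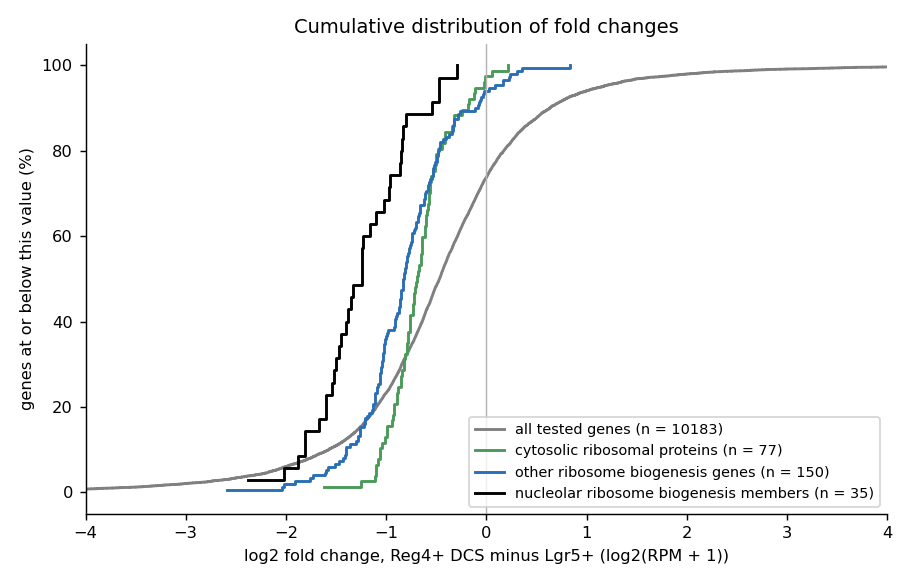
Cumulative share of genes by log2 fold change (Reg4+ DCS minus Lgr5+) for the 35 members, 150 other ribosome biogenesis genes, 77 cytosolic ribosomal protein genes and all 10183 genes tested. Over its middle the members' curve lies farthest to the left, with medians of −1.24, −0.83, −0.69 and −0.47 in that order.

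Cytosolic ribosomal protein genes, whose products the members assemble, were lower for 27 of 77 tested (35.1%, near the 26.9% of all genes) and higher for 0, with a median log2 fold change of −0.69. Under median-of-ratios scaling 0 of them were lower, and in edgeR 1.

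The Myc network, which is known to drive many of these genes, was described gene by gene. Of 10 genes tested, 2 were lower and 1 higher in Reg4+ DCS cells, counts near the 26.9% and 7.18% of all genes. Myc itself was at 34.3 and 56.2 RPM in Reg4+ DCS cells and 42.1 and 65.1 RPM in Lgr5+ cells. The groups overlapped, and its log2 fold change of −0.25 ± 0.33 SE did not pass (adjusted p = 0.575, limma) and had the opposite sign under 4 alternatives. Mycl1, a Myc paralog, was at 24.8 and 34.5 RPM against 59.7 and 94.7 RPM, 2.60-fold higher in Lgr5+ cells (adjusted p = 0.0133, 0.0606 under median-of-ratios scaling). With 1 library left out its fold ran from 2.01 to 3.19. Mxd3, a Max partner expressed in dividing cells, was at 6.59 and 5.28 RPM against 26.7 and 26.1 RPM, a fold of 4.45 (adjusted p = 0.00218). Mxd4, a Max partner that opposes Myc, went the other way, at 19.7 and 20.7 RPM in Reg4+ DCS cells and 10.8 and 6.16 RPM in Lgr5+ cells. It was 2.38-fold higher in Reg4+ DCS cells (adjusted p = 0.0276), with p of 0.107, 0.0894 and 0.148 without Reg4+ DCS replicate 1, Reg4+ DCS replicate 2 or Lgr5+ replicate 2. The other 6 Max partners and relatives did not pass on RPM with all 4 libraries. Under median-of-ratios scaling Mlx passed as higher in Reg4+ DCS cells (adjusted p = 0.0428, limma). Mxd1 was at 386 and 155 RPM against 274 and 96.7 RPM, with replicate 1 the higher in both populations, and Max, the shared partner, was at 81.3 and 73.5 RPM against 119 and 96.4 RPM. Mxi1 was at 19.7 and 22.01 RPM against 31.5 and 19.99 RPM, and Mnt at 16.5 and 15.2 RPM against 18.8 and 11.7 RPM. Mlx, the partner of a related branch, was at 462 and 309 RPM against 319.6 and 211 RPM, and Mga at 22.1 and 27.1 RPM against 38.6 and 32.2 RPM.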

How the data were processed

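Cells were sorted from mouse colonic epithelium and their RNA made into CEL-seq libraries, per the labels' protocols, 2 per population. BWA 0.6.2-r126 and the build mm10 come from the submitters' processing notes, while the counting step, annotation, strand use and molecular identifiers were not given in the sources used here. The authors deposited RPM per gene. Steps in the RPM values gave whole reads within 0.01 reads for 100% of Lgr5+ values (5205723 and 7955340 reads). Reg4+ DCS columns had the form of means of 2 separately scaled parts (5523304 and 1890960 reads in replicate 1, 3004289 and 2443971 in replicate 2), decoded uniquely for 99.95% and 99.1% of genes. The other 7 and 129 genes had several solutions, and the most even split was taken. Decoded reads summed to 5673853 and 1839418 in replicate 1 and to 2979389 and 2464227 in replicate 2. These sums differ from the totals, so some reads used in edgeR and in the settings by part are misassigned.

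Genes with at least 5 RPM in at least 2 libraries were tested with limma 3.58.1 (R 4.3.3, eBayes with trend) on log2(RPM + 1), which understates the change of low genes. Group was the only term, p-values were Benjamini-Hochberg adjusted over all 10183 genes tested, and calls needed an adjusted p under 0.05. Folds are ratios of mean RPM. With 2 libraries per group, p-values rest on the spread between these libraries, which may be partly technical. In limma each gene's variance was drawn towards a trend over all genes tested. Standard errors and p-values thus do not reflect that gene's own replicates alone. Alternatives were median-of-ratios scaling, RPM without Rn45s, pseudocounts of 0.5 and 5, no filter, no trend, edgeR 4.0.16 on recovered reads, a replicate block, each library left out, and each part of the Reg4+ DCS columns. Scripts were tested on simulated data. Promoter windows span 250 bases before to 50 after a RefSeq start. All members are named, and of the other pathway genes, the 2 called genes with the largest absolute log2 fold change per list, called genes higher in Reg4+ DCS cells (up to 3 per list), and every tested gene of the Myc network. The members and lists were chosen with earlier results of these data known.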

Additional observations from a re-analysis of the deposited data

How the results depend on the processing

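The count of 31 members lower in Reg4+ DCS cells became 19 under median-of-ratios scaling and 19 in edgeR, and 12 to 25 with 1 library left out, and was between 25 and 31 under the other alternatives. The members' median log2 fold change of −1.24 became −0.81 under median-of-ratios scaling and −0.91 in edgeR. For the other ribosome biogenesis genes the count of 65 lower became 16 under median-of-ratios scaling, 22 in edgeR, 36 with part 2 of the Reg4+ DCS columns only, and 10 to 42 with 1 library left out; the count of 0 higher became 4 under median-of-ratios scaling, 2 in edgeR, 1 with the replicate block, and 0 to 1 with 1 library left out. Over all genes, 2744 lower became 1297 under median-of-ratios scaling, 1362 in edgeR and 1060 to 2288 with 1 library left out, and 731 higher became 1591, 1393 and 349 to 706 in the same order, and the all-gene median of −0.47 became 0.017 under median-of-ratios scaling. Single genes took the opposite sign as follows: under median-of-ratios scaling Gar1 (0.035), Ddx21 (0.21), Wdr74 (0.018), Myc (0.25), Max (0.040) and Mxi1 (0.23); in edgeR Ddx21 (0.16), Myc (0.12) and Mxi1 (0.17); and with part 1 only Mnt (−0.015). With 1 library left out, log2 fold changes that took both signs ranged from −0.64 to 0.043 for Ddx21, −0.60 to 0.10 for Myc, −0.16 to 1.33 for Mxd1, −0.57 to 0.058 for Mxi1 and −0.23 to 0.41 for Mnt. The cause of these changes was not tested. The 2 settings that use 1 part of each Reg4+ DCS column were chosen after seeing the data.

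Libraries with the same replicate number deviated together with a correlation of 0.212 over 10183 genes, with only 2 pairs and no label that ties the numbers. With the replicate block, 31 members and 84 other ribosome biogenesis genes were lower. Of the ribosome biogenesis genes named, Noc2l and Pop1 had no test without either Lgr5+ library, since they then failed the filter. The same held for the marker Lgr5. Depth limits members of few RPM: 1 read was worth 0.126 to 0.529 RPM.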

Other observations

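A few ribosome biogenesis genes outside the described module went against the rest, chosen here after their values were seen. Sbds, which helps release the anti-association factor Eif6 from the new large subunit, was at 103 and 163 RPM in Reg4+ DCS cells and 86.3 and 60.3 RPM in Lgr5+ cells. The groups did not overlap, and the log2 fold change of 0.84 ± 0.30 SE just missed the threshold (adjusted p = 0.0603, limma). It passed as higher in Reg4+ DCS cells in 4 alternatives: median-of-ratios scaling, edgeR, the replicate block, and without Lgr5+ replicate 1. Znrd1, a subunit of RNA polymerase I, was at 101 and 96.99 RPM against 74.5 and 79.7 RPM, did not pass (adjusted p = 0.230), and passed as higher under median-of-ratios scaling (0.0217) and in edgeR (0.0336). Under median-of-ratios scaling alone, which moves all log2 fold changes up, Surf6 (adjusted p = 0.0362) and Eif6 (0.0338) passed as well. Eif6, at 186 and 223 RPM against 163 and 184 RPM, had an adjusted p of 0.439 without that scaling.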
